A study of Mus musculus with 60 samples.

Results

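The cytoskeleton of cultured mouse hepatocytes was described through 46 listed genes: 34 genes of the actin side (actins, their cross-linkers, tropomyosins, non-muscle myosin II and the proteins that tie filaments to membranes), 9 tubulins, and the caveolins Cav1 and Cav2 with vimentin (Vim). The genes were listed by name and each was read through the probe set annotated to it alone that had the highest mean. Of the 46 genes, 44 had such a probe set, out of 18194 genes with one on the array; the tubulins Tuba1b and Tuba1c had none of their own and were not analysed here. All 44 passed the intensity filter that left 14513 genes for testing.

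Hepatocytes were isolated from male C57BL/6N mice aged 8 to 12 weeks and attached to collagen I at sub-confluence, and each experiment used a single animal or a pool of up to 3 animals. All cells, the controls included, were kept for 24 h without serum in a medium with 100 nM dexamethasone before the experiment. They then received 40 ng/ml recombinant mouse HGF, 40 ng/ml recombinant human IL-6, both (IL-6+HGF), or nothing (unstimulated). RNA was hybridised to Affymetrix arrays at 7 later hours (0.5, 2 and 4 h, then 8, 16, 24 and 32 h) in all 4 arms, with 2 arrays for each arm and hour, and at 0 h in unstimulated cells with 4 arrays, 60 arrays in all. Nothing in the labels ties a group's arrays to different animals, and the spread behind each p-value may therefore be technical. Values are the deposited log2 intensities, and a difference is always the first-named group minus the second.

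Actin filaments carry contractile force and cell shape. Monomers are supplied by profilin and held back by the beta-thymosins, filaments are bundled by alpha-actinin, decorated by tropomyosin and pulled on by non-muscle myosin II, and ezrin, radixin and moesin bind them to the plasma membrane. Microtubules are built from pairs of alpha- and beta-tubulin, and in hepatocytes they carry secretory vesicles to the cell surface while cortical actin lines the bile canaliculi. Cells taken from the liver and plated on collagen spread and lose polarity over time. The growth factor HGF acts through the receptor MET and is known to scatter and spread epithelial cells, and IL-6 acts through gp130 and STAT3 to drive the acute phase response. Many actin-side genes are known targets of the serum response factor SRF, which binds the CArG box and whose coactivators are held in check by actin monomers.

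The letters of the CArG box were looked for in the RefSeq promoter windows of GRCm38.p6, 250 bases before to 50 bases after each start, on both strands. Of the 46 genes 41 had a window, with 47 windows in all. The box was present in 5 of the 47 windows (10.6%), against 1.63% of all 32841 windows. The 5 stretches are shown because SRF is the best known regulator of actin-side genes; the box is in capitals, and all lie before the start.
Myl9, chr2:156775293-156775322, + strand: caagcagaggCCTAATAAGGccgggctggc
Cnn2, chr10:79988534-79988563, + strand: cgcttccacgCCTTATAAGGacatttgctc
Myl6, chr10:128493040-128493069, - strand: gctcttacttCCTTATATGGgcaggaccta
Actg1, chr11:120348566-120348595, - strand: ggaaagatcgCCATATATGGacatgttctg
Vcl, chr14:20929161-20929190, + strand: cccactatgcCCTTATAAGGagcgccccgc
A match is a description of these letters, not a bound site.

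The 2 genes that differed most in opposite directions after IL-6+HGF at 24 h, Tmsb4x and Msn, are shown with the 250 bases before their starts, with the GC box letters GGGCGG in capitals on either strand. Of the 47 windows of these genes 38 (80.9%) held GGGCGG, against 35.7% of all windows. The AP-1 letters TGANTCA were in 5 of the 47 windows (10.6%), against 7.81% of all, and the TEAD letters GGAATG in 10 (21.3%), against 14.7% of all.
Tmsb4x, chrX:167209219-167209468, - strand: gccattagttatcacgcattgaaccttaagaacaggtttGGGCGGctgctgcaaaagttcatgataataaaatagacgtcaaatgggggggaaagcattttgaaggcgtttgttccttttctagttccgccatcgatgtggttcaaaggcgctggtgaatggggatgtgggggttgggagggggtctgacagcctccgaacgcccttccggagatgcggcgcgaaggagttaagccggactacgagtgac
Msn, chrX:96095795-96096044, + strand: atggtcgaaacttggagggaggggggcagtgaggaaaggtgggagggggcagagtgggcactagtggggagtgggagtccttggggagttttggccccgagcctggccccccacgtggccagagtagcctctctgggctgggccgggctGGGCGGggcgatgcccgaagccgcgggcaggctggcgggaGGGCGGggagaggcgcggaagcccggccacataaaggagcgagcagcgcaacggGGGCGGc
The Msn stretch holds 3 copies of GGGCGG and the Tmsb4x stretch 1.

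Some arrays stood apart before any comparison. On the dap labelling control the 3′ minus 5′ signal was 1.18 to 1.52 (log2) in unstimulated cells up to 4 h (10 arrays), and 2.46 to 3.11 on 49 other arrays. Stimulated and unstimulated cells at 0.5, 2 and 4 h therefore lie in different labelling classes, and stimulus and labelling cannot be told apart there; counts over 8 to 32 h, where both lie in the same class, are given beside those over all hours. Between 8 and 32 h the bioB hybridisation control still read 8.13 to 8.40 on unstimulated arrays and 5.38 to 7.05 on stimulated ones, and its part in the differences was not tested. Replicate 1 of IL-6 at 24 h stood apart with a dap value of 3.99.

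The defining hepatocyte marker Alb (albumin) was at 14.15 to 14.44 on every array. The mean of the 7 hepatocyte markers was 10.96 to 11.32 in HGF, 11.02 to 11.11 in IL-6, 10.63 to 10.68 in IL-6+HGF and 11.36 to 11.42 in unstimulated cells at 32 h, against 12.89 to 12.96 at 0 h. Marker means of other liver cells were lower throughout: 4.47 to 5.00 for stellate cells and myofibroblasts, 4.09 to 4.68 for smooth muscle, 5.05 to 5.83 for endothelium, 5.24 to 5.80 for Kupffer cells and leucocytes and 5.15 to 5.86 for cholangiocytes. The markers Lrat, Rgs5, Cnn1, Ptprc and Cftr did not pass the intensity filter, and the other markers with a probe set did. Past the filter were 7 of 9 stellate and myofibroblast, 3 of 4 smooth muscle and all 7 endothelial markers. So were 7 of 8 Kupffer cell and leucocyte markers and 4 of 5 cholangiocyte markers. Single markers reached higher levels, up to 9.72 for Krt19 and 8.51 for Sox9 (cholangiocytes), 9.23 for Cd68 (macrophages) and 8.55 for Lyve1 (endothelium). Of the markers tested against unstimulated cells over 8 to 32 h, HGF had 0 of 7 endothelial markers higher and 5 lower, and 3 of 4 cholangiocyte markers higher and 0 lower. IL-6 had 2 endothelial markers higher and 0 lower, and 1 cholangiocyte marker higher and 1 lower. IL-6+HGF had 0 and 2 of the endothelial and 2 and 1 of the cholangiocyte markers. Of the 7 hepatocyte markers 1 was higher and 5 lower in HGF, and 1 and 6 in both IL-6 and IL-6+HGF. Kupffer cell and leucocyte markers had 2 and 2 of 7 in HGF, 2 and 1 in IL-6, and 0 and 3 in IL-6+HGF. Of 7 stellate and 3 smooth muscle markers at most 1 was higher and 1 lower per arm. Of all genes 27.2% were higher and 27.9% lower in HGF, 18.7% and 23.3% in IL-6, and 28.5% and 28.7% in IL-6+HGF. The part of these shifts in the results was not tested. In these bulk samples fewer cells of a type and less RNA per cell cannot be told apart.

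The largest differences among these genes came with time in culture: at 32 h minus 0 h in unstimulated cells the log2 difference was 4.07 for Enah and -2.12 for Tpm2. Of the 7 tubulins, 5 were at least 2-fold lower in unstimulated cells at some hour than at 0 h and 1 was at least 2-fold higher. Of the 34 actin-side genes, 2 were at least 2-fold lower and 3 at least 2-fold higher. In all, 20 of the 44 genes were higher than at 0 h and 21 lower (limma F-test over 7 hours, Benjamini-Hochberg adjusted), where 40.4% of all tested genes were called higher and 34.6% lower; hours 8 to 32 lie in another labelling class than 0 h. The sides were therefore compared between 32 h and 8 h within each arm, inside 1 labelling class by the dap control. The bioB control was not level between these hours in 2 arms. It went from 7.05 and 7.05 to 5.72 and 5.65 in IL-6, and from 6.14 and 6.32 to 6.98 and 6.94 in HGF. The part of bioB in the late changes was not tested.

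At 32 h relative to 8 h the median tubulin difference was -1.23 in HGF, -1.45 in IL-6, -1.61 in IL-6+HGF and -1.26 in unstimulated cells. The actin-side median was -0.29 in HGF, -0.08 in IL-6, -0.19 in IL-6+HGF and -0.04 in unstimulated cells, and over all genes it was -0.03 in HGF and -0.04 in the other arms. The 7 hepatocyte markers were lower over the same hours too, with medians of -1.40 in HGF, -1.28 in IL-6, -1.85 in IL-6+HGF and -1.39 in unstimulated cells. In HGF, 6 of 7 tubulins fell and none rose, and 20 of 34 actin-side genes fell and 8 rose, where 25.5% of all genes were called lower and 30.5% higher. In IL-6 it was 6 and 0 of the tubulins and 16 and 9 of the actin side (25.7% of all genes lower and 30.6% higher). In IL-6+HGF all 7 tubulins fell, with 18 actin-side genes lower and 10 higher (28.5% of all genes lower and 32.8% higher). In unstimulated cells 5 tubulins fell and 1 rose, with 16 actin-side genes lower and 13 higher (28% of all genes lower and 31.9% higher). The probe sets of tubulins, of Actb with Actg1 and of Myl12a with Myl12b may share signal, because these paralogues are nearly identical in their coding sequence, so their separate values are uncertain.

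**Figure D1:**
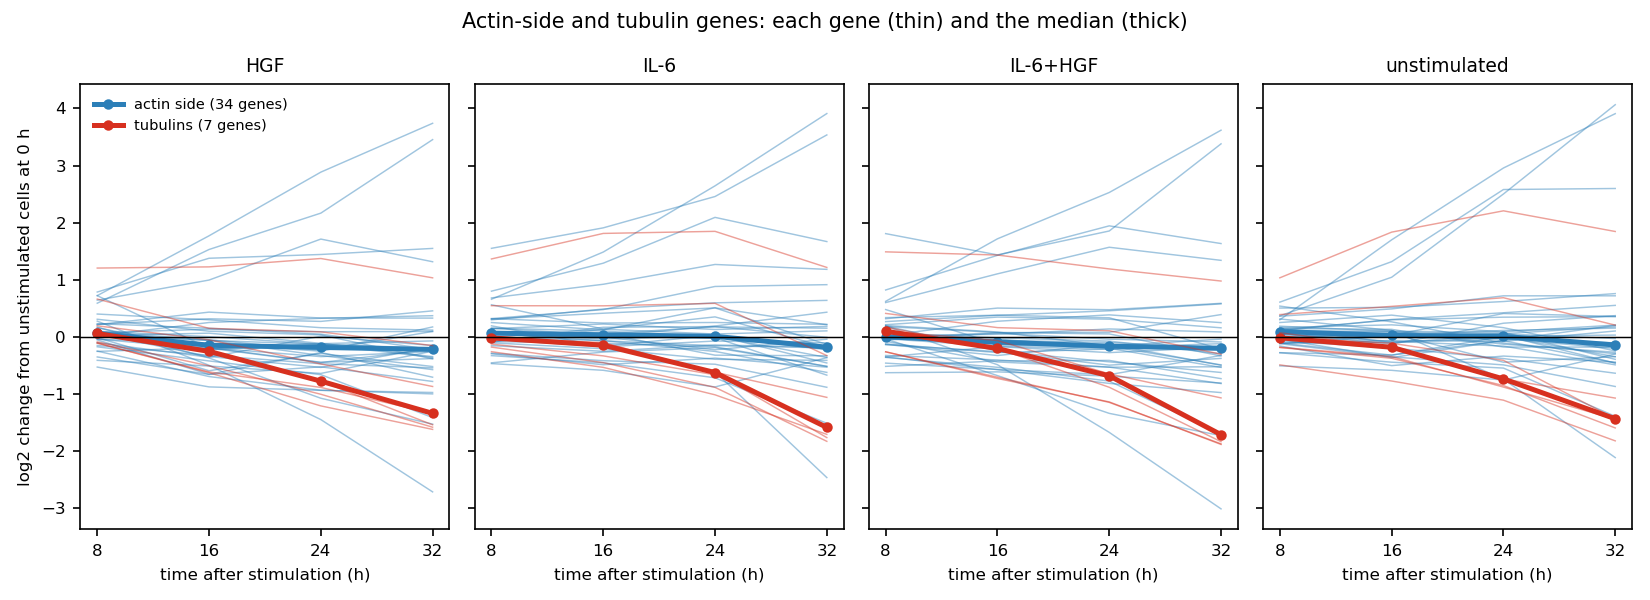
Log2 change from unstimulated cells at 0 h (vertical axis) at 8, 16, 24 and 32 h (horizontal axis), 1 panel per arm in the order HGF, IL-6, IL-6+HGF and unstimulated. Thin lines are the means of single genes, 34 of the actin side in blue and 7 tubulins in red, and thick lines are the medians. At 32 h the tubulin median lay at -1.35 in HGF, -1.59 in IL-6, -1.72 in IL-6+HGF and -1.44 in unstimulated cells, and the actin-side median between -0.23 and -0.15. The arrays of 8 to 32 h lie in another labelling class than those of 0 h.

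Tubb5, a broadly used beta-tubulin, shows the pattern in each arm. At 32 h it read 11.20 and 11.27 in HGF, 11.06 and 10.96 in IL-6, 10.99 and 10.89 in IL-6+HGF, and 11.32 and 11.36 in unstimulated cells. At 8 h all 8 arrays lay between 12.73 and 12.92, so the hours did not overlap in any arm. The differences for Tubb5 were -1.60 (SE 0.04) in HGF, -1.75 in IL-6, -1.93 in IL-6+HGF and -1.42 in unstimulated cells, with an adjusted p of at most 1.3e-29 in the limma fit. The beta-tubulins Tubb2a, Tubb4b and Tubb6 and the alpha-tubulin Tuba4a fell in every arm as well, with differences between -1.04 (Tuba4a in IL-6) and -1.89 (Tubb6 in IL-6+HGF).

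Tuba1a, an alpha-tubulin best known from the developing nervous system, went the other way in unstimulated cells. There it was higher by 0.81 at 32 h than at 8 h, with 11.89 and 11.91 against 11.10 and 11.07, and the adjusted p was 3.6e-12. In IL-6+HGF it fell by 0.51, with 10.96 and 11.10 at 32 h against 11.56 and 11.52 at 8 h. It differed by -0.17 in HGF and by -0.15 in IL-6, which did not pass (adjusted p = 0.067 and 0.11). Tubb2b, another beta-tubulin of the nervous system, fell in the stimulated arms, with differences of -0.82 in HGF, -0.88 in IL-6 and -0.72 in IL-6+HGF, and differed by -0.18 in unstimulated cells (adjusted p = 0.13).

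On the actin side the late changes were spread wide. Tpm2, a tropomyosin that wraps along the filament, fell in all 4 arms, with differences of -2.99 in HGF, -2.66 in IL-6, -3.21 in IL-6+HGF and -2.43 in unstimulated cells (SE 0.12 each). Enah, which extends filaments at their growing ends, rose by 3.02 in HGF, 3.26 in IL-6 and 3.70 in unstimulated cells, and in IL-6+HGF about as far as in HGF. Marcks and Marcksl1, membrane proteins that bind and cross-link actin, rose in all 4 arms, and both rose furthest in unstimulated cells, by 3.61 for Marcks and 1.99 for Marcksl1. Cav1, the coat protein of caveolae, rose by 3.01 to 3.70 over the arms. The usual reference gene Actb (beta-actin) fell in each of the 4 arms, with differences of -0.36 to -0.29.

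**Figure D2:**
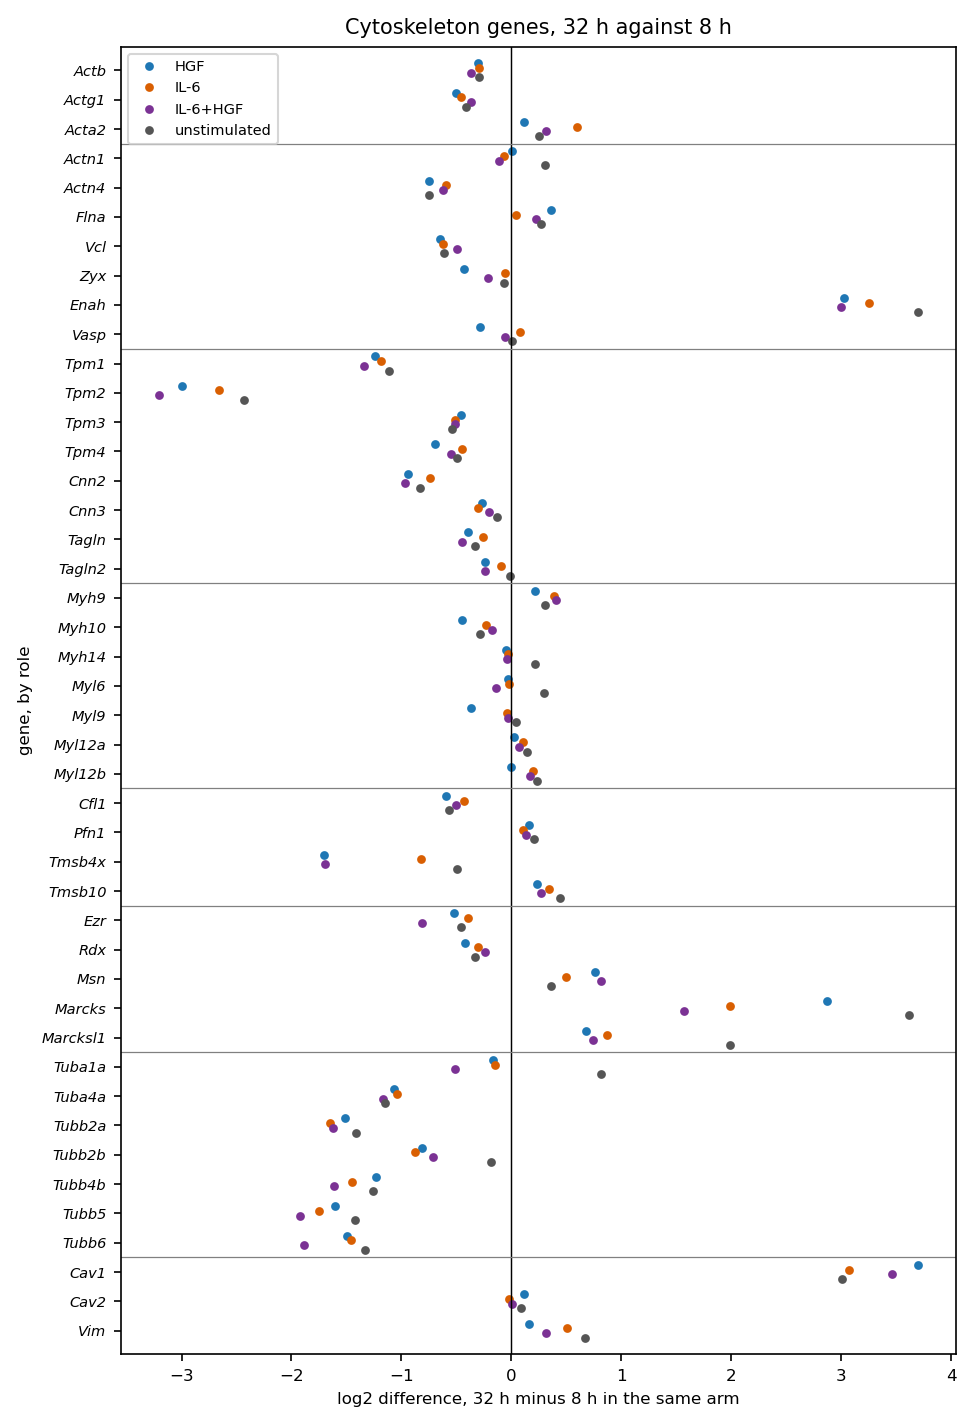
Log2 difference of 32 h minus 8 h (horizontal axis) for the 44 genes grouped by role (vertical axis), with 1 point for each arm. In all 4 arms Tpm2, Tpm1 and 5 of the 7 tubulins lie left of -1 and Enah, Marcks and Cav1 lie right of 1.5; for Tuba1a the unstimulated point lies at 0.81 and the 3 stimulated points lie below 0.

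A probe-based measure of transcript ends moved over the same hours. The beta-actin control probe sets gave a 3′ minus 5′ difference of 0.39 to 0.49 on all arrays at 8 h and of 0.71 to 0.96 on all arrays at 32 h. At 32 h it was 0.83 to 0.96 in IL-6+HGF and 0.71 to 0.72 in unstimulated cells. This difference rose in every arm as the tubulins fell, and its part in the late changes was not tested.

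**Figure D3:**
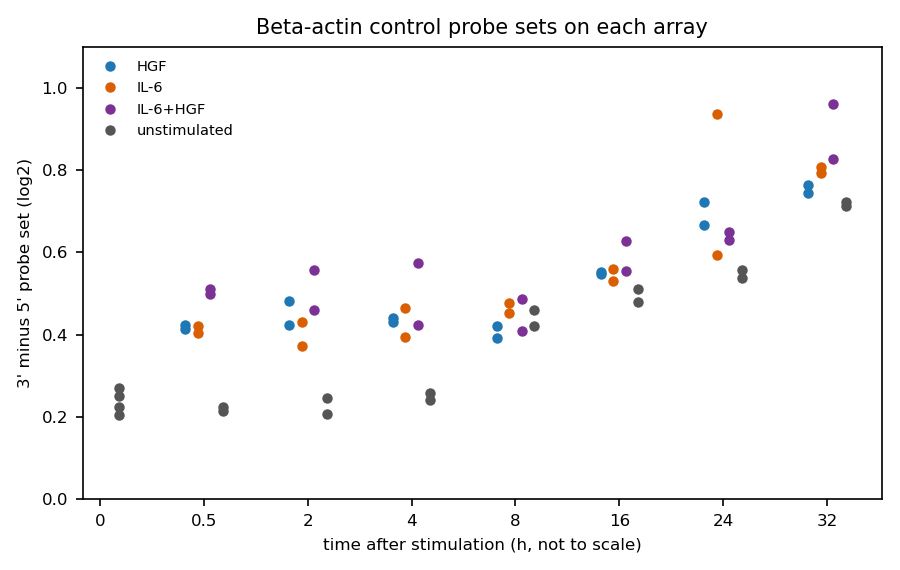
Log2 signal of the 3′ beta-actin control probe set minus the 5′ one (vertical axis) on each of the 60 arrays by hour (horizontal axis) and arm (colour). The 10 unstimulated arrays of 0 to 4 h lie at 0.20 to 0.27, and all arrays of 32 h lie at 0.71 to 0.96.

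The stimuli were followed by differences in most of these genes, and few reached 2-fold. Against unstimulated cells, HGF raised 13 of the 44 and lowered 30 over all hours, where 29.8% of all genes were called higher and 32.8% lower. IL-6 raised 15 and lowered 19, where 23.4% of all genes were higher and 31.7% lower. IL-6+HGF raised 17 and lowered 23, where 31.3% were higher and 36.7% lower. Over 8 to 32 h alone the counts were 13 higher and 26 lower for HGF (27.2% and 27.9% of all genes), 13 and 19 for IL-6 (18.7% and 23.3%), and 13 and 24 for IL-6+HGF (28.5% and 28.7%). The 3 comparisons share the unstimulated arrays. Counting each gene once, by its largest difference between 8 and 32 h, at least 2-fold was reached by 0 genes higher and 2 lower in HGF, 1 higher and 0 lower in IL-6, and 2 higher and 3 lower in IL-6+HGF. Marcks, counted as higher in IL-6+HGF, was also over 2-fold lower there at 24 h (-1.10).

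Split by side over 8 to 32 h, HGF raised 9 and lowered 21 of the 34 actin-side genes, IL-6 raised 11 and lowered 12, and IL-6+HGF raised 10 and lowered 18. The shares of all genes were 27.2% higher and 27.9% lower in HGF, 18.7% and 23.3% in IL-6, and 28.5% and 28.7% in IL-6+HGF. Of the 7 tubulins 2 were higher and 5 lower under each stimulus; Tubb6 and Tuba4a were the higher ones in all 3. The median actin-side difference at 24 h was -0.18 in HGF, 0.00 in IL-6 and -0.14 in IL-6+HGF. The median tubulin difference at 24 h was -0.36 in HGF, -0.10 in IL-6 and -0.29 in IL-6+HGF, and the median of all genes lay within 0.03 of 0 at each of these hours. At 8 h the tubulin median was 0.12 in HGF, 0.01 in IL-6 and 0.03 in IL-6+HGF.

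**Figure D4:**
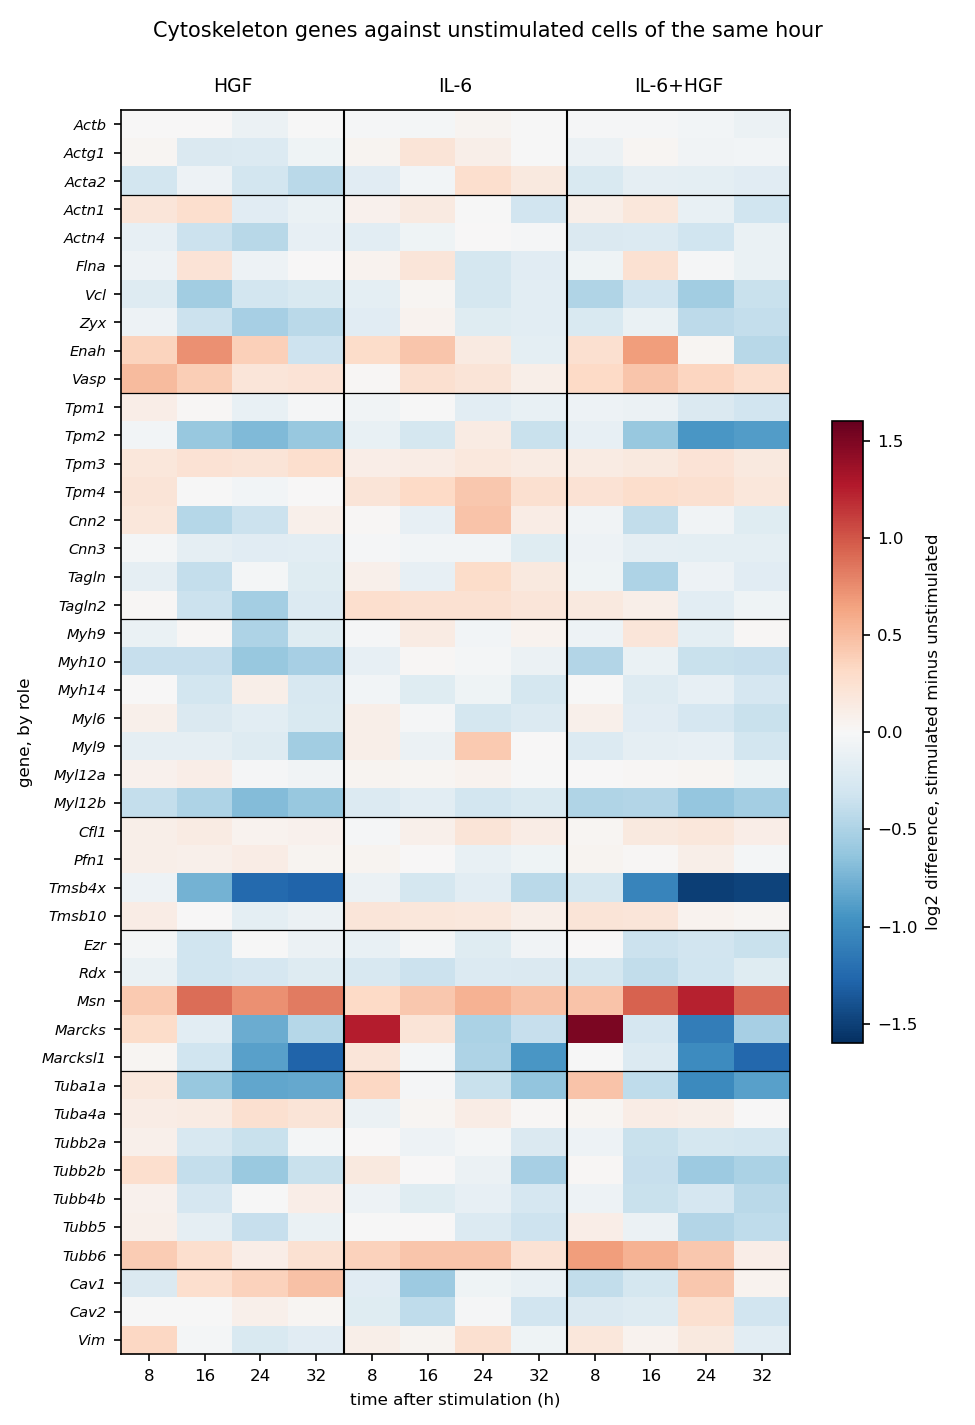
Log2 difference from unstimulated cells of the same hour (colour, from -1.6 in blue to 1.6 in red) for 44 genes grouped by role (vertical axis) at 8, 16, 24 and 32 h of HGF, IL-6 and IL-6+HGF (horizontal axis). Tmsb4x at 24 h (-1.24 in HGF and -1.50 in IL-6+HGF) and Msn at 24 h of IL-6+HGF (1.23) are among the strongest colours, with Marcks at 8 h of IL-6 (1.25) and of IL-6+HGF (1.51).

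The actins themselves moved little on the probe sets used. Actb was read through the 3′ beta-actin control probe set (mean 14.00), the one in the 3′ minus 5′ measure above. Another Actb probe set (mean 12.17) was higher at 8 h, by 0.24 in HGF, 0.28 in IL-6 and 0.21 in IL-6+HGF. Of the 5 Actb probe sets, 5 in HGF and 3 each in IL-6 and IL-6+HGF had the sign of the one used at that hour. Actb read 13.84 and 13.88 in HGF, 14.02 and 13.99 in IL-6, 13.93 and 13.90 in IL-6+HGF, and 13.96 and 13.96 in unstimulated cells at 24 h. The HGF arrays lay just below the rest, a difference of -0.10 (SE 0.03, adjusted p = 0.013 over all hours), which did not pass over 8 to 32 h. Actg1, the other cytoplasmic actin and 1 of the 5 genes with a CArG box, read 12.53 and 12.58 in HGF, 12.88 and 13.10 in IL-6, 12.76 and 12.89 in IL-6+HGF, and 12.81 and 12.76 in unstimulated cells at 16 h. HGF arrays were below and IL-6 arrays above the unstimulated ones, by -0.23 (SE 0.05, adjusted p = 6.1e-06) and 0.20. Acta2, the smooth muscle actin, read 6.98 and 6.56 in HGF, 7.46 and 7.24 in IL-6, and 7.25 and 7.14 in unstimulated cells at 32 h, and IL-6+HGF lay between HGF and unstimulated cells. It was lower in HGF by 0.43 (log2 -0.43, SE 0.11, adjusted p = 6.5e-04), though the difference was -0.03 when its 3 probe sets were averaged.

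Among cross-linkers and adhesion linkers, 4 of 7 were higher in HGF and 3 lower over 8 to 32 h, against 2 and 4 in IL-6 and 3 and 4 in IL-6+HGF. The shares of all genes higher and lower were 27.2% and 27.9% in HGF, 18.7% and 23.3% in IL-6, and 28.5% and 28.7% in IL-6+HGF. Vcl (vinculin, which links actin to adhesions, with a CArG box) read 10.04 and 10.09 in HGF, 10.70 and 10.61 in IL-6, 10.22 and 10.41 in IL-6+HGF, and 10.65 and 10.59 in unstimulated cells at 16 h. The HGF arrays lay below all others, by -0.56 against unstimulated cells (SE 0.05, adjusted p = 1.3e-13). Enah was higher at 16 h, with 7.67 and 7.74 in HGF, 7.47 and 7.36 in IL-6 and 7.83 and 7.47 in IL-6+HGF, against 6.89 and 7.06 in unstimulated cells. No stimulated array of that hour overlapped an unstimulated one; the HGF difference was 0.73 (SE 0.12, adjusted p = 2.2e-08). By 32 h the order had turned, with 9.62 and 9.73 in HGF, 9.85 and 9.84 in IL-6 and 9.65 and 9.46 in IL-6+HGF, against 9.93 and 10.07 in unstimulated cells. All 4 Enah probe sets past the filter were lower at 32 h in HGF and in IL-6+HGF. In IL-6 only 2 of the 4 were lower, and the others differed by 0.23 and 0.16, against -0.16 for the one used. Vasp, a relative of Enah, was higher in HGF by 0.51 at 8 h and in IL-6+HGF by 0.44 at 16 h, and Zyx, the adhesion protein zyxin, was lower in HGF by 0.53 at 24 h (log2 -0.53).

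**Figure D5:**
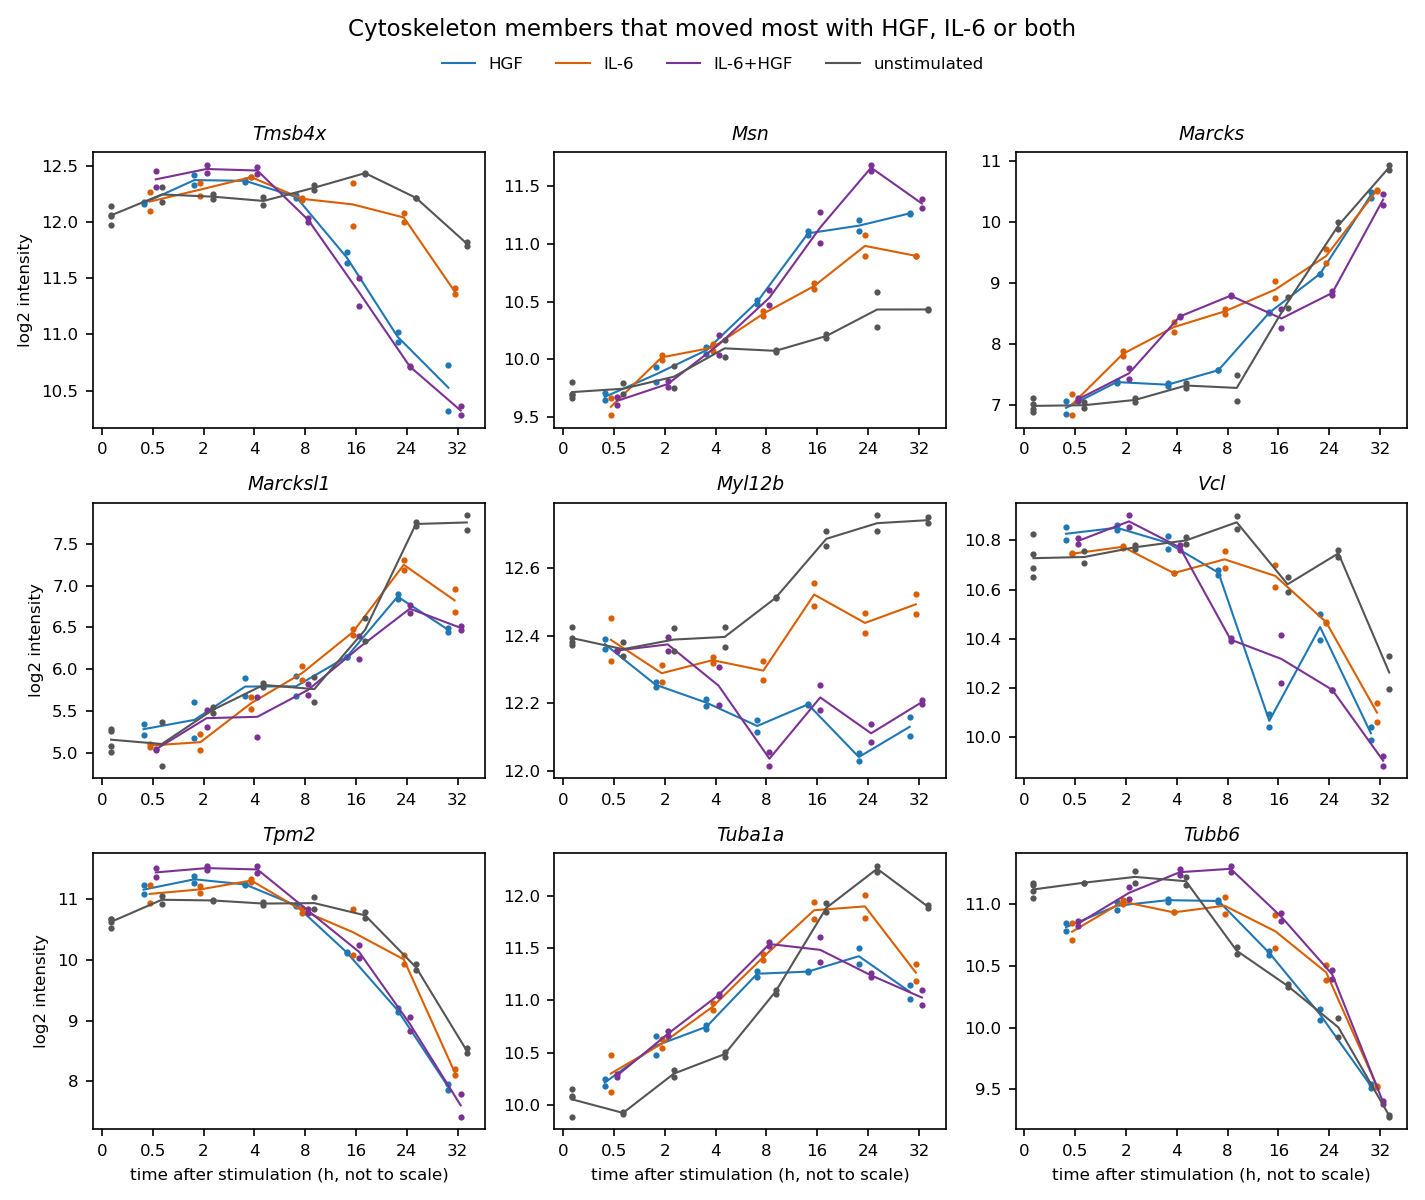
Log2 intensity (vertical axis) by hour (horizontal axis, not to scale) of Tmsb4x, Msn, Marcks, Marcksl1, Myl12b, Vcl, Tpm2, Tuba1a and Tubb6, with 1 point per array and lines through the means of HGF, IL-6, IL-6+HGF and unstimulated cells. At 24 h the 4 Tmsb4x arrays of HGF and IL-6+HGF lie between 10.71 and 11.02, below the 4 arrays of IL-6 and unstimulated cells between 12.00 and 12.22.

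Tropomyosins, calponins and transgelins decorate the filament and tune how myosin reaches it. Of these 8 genes, 2 were higher and 6 lower in HGF over 8 to 32 h, 4 and 3 in IL-6, and 2 and 5 in IL-6+HGF. Over all genes 27.2% were higher and 27.9% lower in HGF, 18.7% and 23.3% in IL-6, and 28.5% and 28.7% in IL-6+HGF. Tpm2 read 9.14 and 9.20 in HGF, 10.08 and 9.94 in IL-6, 9.06 and 8.83 in IL-6+HGF, and 9.83 and 9.93 in unstimulated cells at 24 h. Arrays with HGF, alone or combined, all lay below those without it, and IL-6+HGF differed from unstimulated cells by -0.93 (SE 0.12, adjusted p = 7.4e-14). Tagln2, a transgelin of non-muscle cells, read 10.89 and 11.21 in HGF, 11.90 and 11.78 in IL-6, 11.41 and 11.44 in IL-6+HGF, and 11.56 and 11.63 in unstimulated cells at 24 h. HGF lay lowest and IL-6 highest, and the HGF difference was -0.55 (SE 0.09, adjusted p = 5.7e-06). Tpm3 was higher in all 3 arms, by 0.27 in HGF, 0.17 in IL-6 and 0.21 in IL-6+HGF, and Tpm4 was higher by 0.43 in IL-6 at 24 h.

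Non-muscle myosin II is the motor that contracts the actin network, with heavy chains (Myh9, Myh10, Myh14) and light chains (Myl6, Myl9, Myl12a, Myl12b). HGF lowered 5 of the 7 and raised 1 over 8 to 32 h, IL-6 lowered 2, and IL-6+HGF lowered 3 and raised 1. Of all genes 27.9% were lower in HGF, 23.3% in IL-6 and 28.7% in IL-6+HGF, so the counts in IL-6 and IL-6+HGF were near the shares of all genes. Myl12b, a regulatory light chain, read 12.03 and 12.05 in HGF, 12.47 and 12.41 in IL-6, 12.14 and 12.08 in IL-6+HGF, and 12.76 and 12.71 in unstimulated cells at 24 h. The arms did not overlap, with HGF lowest and unstimulated cells highest; HGF differed by -0.69 (SE 0.04, adjusted p = 1.2e-24). Myh10, the heavy chain of myosin IIB, read 8.85 and 8.98 in HGF, 9.51 and 9.45 in IL-6, 9.20 and 9.12 in IL-6+HGF, and 9.46 and 9.57 in unstimulated cells. IL-6 and unstimulated arrays overlapped while HGF lay lowest, with a difference of -0.60 (SE 0.06, adjusted p = 5.0e-16). Myh9, the heavy chain of myosin IIA, was lower in HGF by 0.49 at 24 h (log2 -0.49), and Myl9 lay between 3.81 and 4.69 over the series, close to the 40th percentiles of the arrays (4.28 to 4.40) that set the filter.

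Of the 4 filament turnover genes Tmsb4x differed furthest. It encodes thymosin beta-4, which binds actin monomers, and at 24 h it read 10.93 and 11.02 in HGF, 12.08 and 12.00 in IL-6, 10.72 and 10.71 in IL-6+HGF, and 12.22 and 12.22 in unstimulated cells. All arrays with HGF lay over 0.9 below all arrays without it. The difference from unstimulated cells was -1.24 in HGF and -1.50 (SE 0.08) in IL-6+HGF, with an adjusted p of 3.6e-25 over all hours in IL-6+HGF. At 32 h IL-6 was lower too, with 11.41 and 11.36 against 11.83 and 11.79 in unstimulated cells, a difference of -0.43. The related Tmsb10 differed less. At 8 h it read 13.63 and 13.59 in HGF, 13.67 and 13.71 in IL-6, 13.71 and 13.71 in IL-6+HGF, and 13.49 and 13.51 in unstimulated cells, and it was higher in IL-6+HGF by 0.21 (SE 0.03, adjusted p = 1.7e-08); in HGF it was lower at 24 h (-0.15).

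Profilin 1 (Pfn1), which feeds monomers to growing ends, shows the labelling limit. At 4 h it read 11.86 and 11.88 in HGF, 11.92 and 11.90 in IL-6 and 11.85 and 11.70 in IL-6+HGF, against 12.39 and 12.37 in unstimulated cells of the other labelling class. At 8 h it read 11.96 and 12.00 in HGF, 11.94 and 11.90 in IL-6 and 12.02 and 11.84 in IL-6+HGF, against 11.88 and 11.88 in unstimulated cells. Its call as lower in all 3 comparisons rests on the hours up to 4 h, and over 8 to 32 h it did not pass in any of the 3.

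The membrane linkers split. Msn encodes moesin, and at 24 h it read 11.11 and 11.21 in HGF, 10.89 and 11.07 in IL-6, 11.69 and 11.63 in IL-6+HGF, and 10.59 and 10.28 in unstimulated cells. IL-6+HGF lay highest and unstimulated cells lowest with no overlap, and the differences were 0.55 in IL-6 and 1.23 (SE 0.07) in IL-6+HGF at that hour and 0.89 in HGF at 16 h. Its relative Rdx (radixin) was lower in all 3 arms, by -0.32 in HGF, -0.34 in IL-6 and -0.39 in IL-6+HGF at 16 h. Ezr (ezrin), the family's main member in many epithelia, was lower in IL-6+HGF by 0.35 at 32 h (log2 -0.35) and did not pass in HGF or IL-6. The other Ezr probe set past the filter differed by -0.04 in IL-6+HGF at 32 h. In HGF at 8 h it differed by 0.38, where the one used differed by -0.03.

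Marcks changed direction during the culture. At 8 h it read 7.57 and 7.56 in HGF, 8.57 and 8.48 in IL-6, 8.80 and 8.77 in IL-6+HGF, and 7.49 and 7.06 in unstimulated cells. Arrays with IL-6 lay about 1 unit above those without it; the differences were 1.25 in IL-6 and 1.51 in IL-6+HGF (SE 0.11 each, adjusted p = 2.5e-20 over all hours in IL-6+HGF). At 24 h the order was turned, with 9.14 and 9.15 in HGF, 9.56 and 9.32 in IL-6 and 8.80 and 8.86 in IL-6+HGF, against 9.99 and 9.88 in unstimulated cells, and IL-6+HGF differed by -1.10. All 7 probe sets of Marcks that passed the filter had the same sign at 8 h in IL-6 and in IL-6+HGF, as did both of Msn; Tmsb4x has 1. The relative of Marcks, Marcksl1, read 6.49 and 6.45 in HGF, 6.96 and 6.69 in IL-6, 6.47 and 6.52 in IL-6+HGF, and 7.67 and 7.84 in unstimulated cells at 32 h. All stimulated arrays lay at least 0.7 below the unstimulated ones, by -1.28 in HGF (SE 0.14, adjusted p = 3.5e-10), -0.93 in IL-6 and -1.26 in IL-6+HGF.

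The tubulins differed among themselves under the stimuli. Tuba1a, the gene that rose in unstimulated culture, read 11.50 and 11.34 in HGF, 12.01 and 11.79 in IL-6, 11.26 and 11.22 in IL-6+HGF, and 12.29 and 12.23 in unstimulated cells at 24 h. The arms did not overlap, and IL-6+HGF differed by -1.02 (SE 0.08, adjusted p = 2.5e-19) and HGF by -0.84. At 8 h all stimulated arrays lay above the unstimulated ones, with 11.28 and 11.23 in HGF, 11.44 and 11.39 in IL-6 and 11.56 and 11.52 in IL-6+HGF, against 11.10 and 11.07 in unstimulated cells. Tubb6, a beta-tubulin, read 11.03 and 11.02 in HGF, 10.92 and 11.05 in IL-6, 11.26 and 11.31 in IL-6+HGF, and 10.59 and 10.65 in unstimulated cells at 8 h. IL-6+HGF lay highest and unstimulated cells lowest, a difference of 0.66 (SE 0.06, adjusted p = 4.8e-17). The other Tubb6 probe set past the filter had a mean of 5.63, against 10.66 for the one used. It did not show this, with 0.03 in HGF, 0.14 in IL-6 and 0.0008 in IL-6+HGF at 8 h. By 32 h the Tubb6 arms had closed up, at 9.51 and 9.55 in HGF, 9.52 and 9.53 in IL-6, 9.41 and 9.39 in IL-6+HGF, and 9.30 and 9.28 in unstimulated cells. Tubb5 (-0.47 at 24 h) and Tubb4b (-0.43 at 32 h) were lower in IL-6+HGF, and Tuba4a was higher in HGF by 0.26 at 24 h.

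The caveolins shape membrane pits and Vim is the intermediate filament protein of mesenchymal cells. Cav1 read 9.83 and 9.11 in HGF, 8.75 and 9.02 in IL-6, 9.07 and 9.06 in IL-6+HGF, and 9.17 and 8.83 in unstimulated cells at 32 h. Both HGF arrays lay above the IL-6 and IL-6+HGF arrays, the lower of them lay within the unstimulated range, and the HGF difference was 0.47 (SE 0.16, adjusted p = 0.015); without unstimulated replicate 2 of 32 h it was 0.30 and did not pass. Cav2 read 9.90 and 9.97 in HGF, 9.53 and 9.54 in IL-6, 9.73 and 9.74 in IL-6+HGF, and 9.79 and 10.09 in unstimulated cells at 16 h. Only IL-6 and IL-6+HGF lay below the unstimulated arrays, and IL-6 differed by -0.40 (SE 0.08, adjusted p = 1.6e-05). Vim read 12.35 and 12.23 in HGF, 11.99 and 12.12 in IL-6, 12.07 and 12.20 in IL-6+HGF, and 12.00 and 11.91 in unstimulated cells at 8 h. Both HGF arrays lay above the rest, by 0.33 against unstimulated cells (SE 0.10, adjusted p = 1.0e-05 over all hours). By 32 h the sign had turned: the HGF difference for Vim was -0.18, and all 3 of its probe sets lay below 0.

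IL-6 and HGF were then set against each other. All arrays of this comparison lie in the same labelling class except replicate 1 of IL-6 at 24 h, with its dap value of 3.99. The bioB control differed between the 2 arms at 0.5 h, at 8.47 and 8.36 in HGF and 7.08 and 7.03 in IL-6. It also differed at later hours. At 8 h it read 6.14 and 6.32 in HGF and 7.05 and 7.05 in IL-6. At 32 h it read 6.98 and 6.94 in HGF and 5.72 and 5.65 in IL-6, while at 24 h the 2 arms overlapped. The part of bioB in the differences was not tested. IL-6 was higher than HGF for 26 of the 44 genes and lower for 13, where 22.3% of all genes were called higher and 28.9% lower; on the actin side it was 21 and 8. Tmsb4x was higher in IL-6 by 1.06 at 24 h (SE 0.08), Marcks by 0.96 at 8 h and Tpm2 by 0.84 at 24 h. The other filament-binding genes higher in IL-6 included Cnn2 (0.80), Tagln2 (0.79), Myl9 (0.62) and Myh10 (0.57) at 24 h, Vcl (0.59) and Actg1 (0.43) at 16 h, and Acta2 (0.59) at 32 h. Of the 5 genes with a CArG box, Myl9, Cnn2, Actg1 and Vcl were higher in IL-6 and Myl6 did not pass. The lower ones included Cav1 (-0.85) and Msn (-0.46) at 16 h and Vasp (-0.48) at 8 h. Without replicate 1 of IL-6 at 24 h, Actb, Flna and Pfn1 no longer passed in this comparison (adjusted p = 0.096, 0.088 and 0.073).

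Adding IL-6 to HGF moved fewer genes. IL-6+HGF was higher than HGF alone for 13 genes and lower for 14, where 17.7% and 23.9% of all genes were called. Marcks stood out, higher by 1.22 at 8 h (SE 0.11), with Msn higher by 0.50 at 24 h and Tagln2 by 0.43 at 16 h. Tubb4b was lower by 0.53 at 32 h (log2 -0.53, SE 0.04), with 10.60 and 10.59 in IL-6+HGF against 11.14 and 11.12 in HGF. Cav1 was lower at 16 h (-0.55).

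Adding HGF to IL-6 gave more lower than higher genes. IL-6+HGF was higher than IL-6 alone for 10 genes and lower for 24, where 23.2% and 20.9% of all genes were called; on the actin side it was 7 and 19, and among tubulins 1 and 5. Tmsb4x was lower by 1.33 at 24 h (log2 -1.33, SE 0.08), Tpm2 differed by -1.06 and Tuba1a by -0.66 at the same hour. Msn was higher by 0.68 at 24 h. The IL-6 arrays at 24 h include the replicate that stood apart, and without it Flna, Myh9 and Tmsb10 no longer passed (adjusted p = 0.14, 0.069 and 0.093) and Acta2 differed by -0.29 in place of -0.43 at 24 h.

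The interaction of the stimuli is the log2 difference of IL-6+HGF from unstimulated cells minus the sum of the 2 single differences. It passed for 24 of the 44 genes over all hours, 14 positive and 10 negative, where 18.9% of all genes were positive and 14.6% negative. Over 8 to 32 h, inside 1 labelling class but for replicate 1 of IL-6 at 24 h, 16 passed, 7 positive and 9 negative. Of all genes 11.4% and 8.28% were. Marcksl1 had the highest value, 0.96 at 32 h (SE 0.20, adjusted p = 0.0030 over 8 to 32 h), an hour at which it differed from unstimulated cells by -1.28 in HGF, -0.93 in IL-6 and -1.26 in IL-6+HGF. Tuba1a was at 0.57 at 32 h, Myh9 at 0.38, Myl12b at 0.37 and Myh10 at 0.29 at 24 h. The negative ones included Enah (-0.50 at 24 h), Msn (-0.38 at 16 h) and Tubb6 (-0.37 at 32 h). Without replicate 1 of IL-6 at 24 h Enah was at -0.39 and its test over all hours no longer passed (adjusted p = 0.0502). Tmsb4x did not pass (0.22 at 32 h).

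Genes that regulate the same structures, listed by pathway, had members called in both directions. Of 24 genes of the Arp2/3 complex, capping and severing 19 were measured, and over 8 to 32 h 12 were higher and 6 lower in HGF, 8 and 6 in IL-6, and 9 and 7 in IL-6+HGF. Over these hours 27.2% of all genes were higher and 27.9% lower in HGF, 18.7% and 23.3% in IL-6, and 28.5% and 28.7% in IL-6+HGF. Lcp1, an actin bundler best known from leucocytes, was lower at 16 h in HGF (-0.82), IL-6 (-0.53) and IL-6+HGF (-1.04, SE 0.06). Cttn (cortactin, which stabilises branches) differed by -0.33 in HGF, 0.13 in IL-6 and -0.29 in IL-6+HGF. Iqgap1, a scaffold of the cell cortex, was higher by 0.90 in HGF, 0.38 in IL-6 and 0.79 in IL-6+HGF at 2 to 4 h, and Arpc4, a subunit of the complex, was lower by -0.81, -0.79 and -0.92 in the same order at 0.5 to 2 h, hours that cross labelling classes.

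All 23 genes of microtubule-associated proteins and tubulin folding were measured. Over 8 to 32 h 9 were higher and 12 lower in HGF, 5 and 10 in IL-6, and 7 and 13 in IL-6+HGF, against the same shares of all genes (27.2% and 27.9% in HGF, 18.7% and 23.3% in IL-6, 28.5% and 28.7% in IL-6+HGF). Stmn1 (stathmin, which binds free tubulin) was lower by -0.44 in HGF at 8 h, -0.69 in IL-6 at 24 h and -0.79 in IL-6+HGF at 16 h. In unstimulated cells Stmn1 was higher by 1.61 at 32 h than at 0 h, hours that lie in different labelling classes. The end-binding gene Mapre2 differed by -0.50 in HGF, -0.37 in IL-6 and -0.64 in IL-6+HGF, and the linker Clip1 by -0.42, -0.53 and -0.60 at 8 h in the same order. Tcp1, a subunit of the chaperonin that folds actin and tubulin, differed by 0.17 in HGF, -0.28 in IL-6 and -0.45 in IL-6+HGF.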

How the data were processed

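The series matrix holds the values the authors deposited for 45101 probe sets on 60 Affymetrix arrays, and their range and near-equal array medians fit log2 intensities; the summarisation and scaling behind the deposited log2 values are not given in the sources used here. Of the probe sets, 34958 had 1 gene symbol in the platform annotation, 932 several and 9211 none listed; only the first kind was named. A gene's value is that of its highest-mean probe set, and genes above the array's 40th percentile on at least 2 arrays were kept. Linear models with 29 groups (arm by hour) and 31 residual degrees of freedom were fitted with limma 3.58.1 in R 4.3.3 on all arrays. A gene was called by a moderated F-test over 7 hours (a single contrast for 32 h against 8 h) at a Benjamini-Hochberg adjusted p of 0.05 over all 14513 genes, and its direction is that of its largest hourly difference. Per-hour values are differences of group means with the fit's SE, and the number of arrays limits their precision.

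The text names in full 2 genes of each role with the largest difference at 8 to 32 h among those past the test, plus Actb, Actg1 and Vim, and the 4 genes of each pathway list with the smallest adjusted p in IL-6+HGF (1 list is not reported here); other genes named were chosen after their values were seen. The members, lists and tests were chosen with earlier results of these data known. The labels speak of 3 replicates and the table holds 2 arrays a group. Same-numbered arrays did not deviate together in a consistent direction (378 pairs of groups, correlations -0.27 to 0.25, median -0.0004), so no pairing was used. Whether some arrays shared a preparation was not tested. None of 1770 array pairs was identical. The code was tested on simulated data. Alternatives were quantile normalization, other filters, the mean over probe sets, other variance models, a fit on the compared arms, a replicate block and leaving out single arrays.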

Additional observations from a re-analysis of the deposited data

Results flagged for a closer look

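At 0 h, the hour with 4 arrays, replicate 2 stood apart for 2 of the 44 genes. Cav2 read 9.10 there, where the other arrays read 9.15 to 9.16, and Zyx read 8.06, where the other arrays read 8.16. Such a gap is met by chance in about 1 of 20 groups, and these arrays enter only the comparison with 0 h.

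Over 8 to 32 h the limma interaction was positive for 7 of the 44 genes and negative for 9, where 11.4% and 8.28% of all genes were. The test over all hours also takes in the unstimulated arrays up to 4 h, which lie in another labelling class. In the test over all hours the response to IL-6+HGF differed from the sum of the single responses for 24 genes. Of all genes 33.6% passed that test. Among the genes described in full these were Marcksl1 (0.96 at 32 h, adjusted p = 0.0033), Tuba1a (0.57 at 32 h, adjusted p = 3.6e-04), Myl12b (0.37 at 24 h, adjusted p = 9.8e-09), Myh10 (0.29 at 24 h, adjusted p = 4.2e-04) and Enah (-0.50 at 24 h, adjusted p = 0.019). Without IL-6 replicate 1 of 24 h the Enah value was -0.39 and did not pass (adjusted p = 0.0502). Marcks (-0.61 at 2 h, adjusted p = 0.0074) and Tubb6 (0.48 at 4 h, adjusted p = 5.6e-08) had their largest value at an hour that crosses labelling classes; over 8 to 32 h Marcks did not pass, and Tubb6 passed with a value of -0.37 at 32 h.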

How the results depend on the processing

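The 12 counts of called genes stayed within 1.5 times their value under every alternative run: quantile normalization, no filter, the mean over probe sets, a stricter filter (60th percentile), a fit on the compared arms only, a replicate block, variance models without trend or robust, and hours 8 to 32 alone for the 8 comparisons it can be run for. With the replicate block the counts were 42 for HGF, 36 for IL-6, 40 for IL-6+HGF, 40 for IL-6 against HGF, 27 and 35 for IL-6+HGF against HGF and IL-6, and 23 for the interaction. In the labels same-numbered arrays share only a number. Leaving out 1 array at a time gave 41 to 44 for HGF, 32 to 36 for IL-6, 38 to 41 for IL-6+HGF and 22 to 27 for the interaction. Of the 18 genes described in full, none changed direction. Acta2 did not pass with the mean over probe sets (-0.03, adjusted p = 0.51; 1 of its 3 probe sets passed the filter), and Actb did not pass without a variance trend (adjusted p = 0.067) or without HGF replicate 1 of 24 h (-0.08, adjusted p = 0.056). Cav1 did not pass without unstimulated replicate 2 of 32 h (0.30, adjusted p = 0.064). Without IL-6 replicate 1 of 24 h, Tagln and Tubb2a no longer passed against unstimulated cells (adjusted p = 0.069 and 0.052), and Flna at 24 h was -0.10 in place of -0.28. With 2 arrays a group, and stimulus crossing labelling class up to 4 h, small early differences are not interpretable.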
